A study of Homo sapiens with 9 samples.

Results

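The RhoGEF and RhoGAP genes were followed across 3 groups of A431 cells: parental and Ctrl cells, which hold mutant p53, and p53 KO cells. Members were taken by symbol from the deposited count table: every ARHGEF and ARHGAP gene with a number in its name, together with NGEF, VAV1, VAV2, VAV3, TIAM1, TIAM2 and NET1. This gave 69 of 58051 genes, 34 of them RhoGEF and 35 RhoGAP genes, and 67 are annotated as protein coding. A431 is an epidermoid carcinoma cell line that carries its own mutant p53. Parental cells were unmodified. Ctrl cells had received the empty CRISPR vector and keep mutant p53, and p53 KO cells had received a CRISPR construct against p53. All groups were grown in the same medium, were raised from single colonies and were harvested 48 h after settling. The number of colonies behind each group is not given, so each group, parental included, may stand for a clone. Each group had 3 poly(A) RNA libraries. The labels do not say whether these came from separate cultures, so the p-values measure only the spread between these libraries, which may be technical.

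Small GTPases such as RHOA, RAC1 and CDC42 act as switches that set the actin cytoskeleton, cell shape, contractility and engulfment. RhoGEFs load them with GTP and turn them on, and RhoGAPs speed GTP hydrolysis and turn them off. Each GTPase is served by many GEFs and GAPs, which differ in their targets, partners and sites in the cell.

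The sharpest contrasts among these genes concerned ARHGEF26 and NGEF. ARHGEF26 (SGEF) is a GEF for RHOG, a GTPase linked to membrane ruffling and macropinocytosis. NGEF (ephexin 1) is a GEF that acts downstream of Eph receptors and is best known from neurons. RefSeq promoter windows (250 bases before to 50 after an annotated start, GRCh38.p14) were found for 54 of the 69 genes, several genes having more than 1 start. The windows of NGEF and ARHGEF26 are printed 5′ to 3′ on the strand of the gene because RNA of these genes was at or near 0 in a single group each. Capitals mark CpG dinucleotides, the bases that DNA methylation can modify. NGEF lies on the minus strand, with windows at chr2:233013207-233013506 and chr2:232928102-232928401. ARHGEF26 lies on the plus strand, with windows at chr3:154120753-154121052 and chr3:154121140-154121439.
NGEF upstream start: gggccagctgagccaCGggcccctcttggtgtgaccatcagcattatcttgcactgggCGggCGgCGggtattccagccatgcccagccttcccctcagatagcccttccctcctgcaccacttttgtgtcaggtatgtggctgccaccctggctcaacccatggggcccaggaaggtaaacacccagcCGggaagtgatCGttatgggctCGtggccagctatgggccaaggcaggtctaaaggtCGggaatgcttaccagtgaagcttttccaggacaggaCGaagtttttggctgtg
NGEF downstream start: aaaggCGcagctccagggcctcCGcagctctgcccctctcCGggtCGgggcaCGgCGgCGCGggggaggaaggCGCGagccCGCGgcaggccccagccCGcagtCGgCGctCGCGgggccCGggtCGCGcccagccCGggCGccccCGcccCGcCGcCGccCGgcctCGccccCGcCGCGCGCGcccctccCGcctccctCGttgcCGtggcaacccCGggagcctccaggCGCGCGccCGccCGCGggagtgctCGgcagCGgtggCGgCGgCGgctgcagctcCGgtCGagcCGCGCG
ARHGEF26 upstream start: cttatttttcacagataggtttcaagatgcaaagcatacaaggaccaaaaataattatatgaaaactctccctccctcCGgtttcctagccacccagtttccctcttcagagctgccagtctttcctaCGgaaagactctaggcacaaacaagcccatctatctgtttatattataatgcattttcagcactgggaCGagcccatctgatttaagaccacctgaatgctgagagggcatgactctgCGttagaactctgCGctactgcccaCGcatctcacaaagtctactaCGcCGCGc
ARHGEF26 downstream start: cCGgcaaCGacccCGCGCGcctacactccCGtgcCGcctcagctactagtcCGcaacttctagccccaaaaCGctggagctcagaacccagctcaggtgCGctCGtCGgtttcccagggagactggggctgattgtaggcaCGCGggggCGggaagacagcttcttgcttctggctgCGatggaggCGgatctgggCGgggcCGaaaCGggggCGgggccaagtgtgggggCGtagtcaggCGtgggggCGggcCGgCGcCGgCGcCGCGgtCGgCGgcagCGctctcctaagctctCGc

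In both genes the windows differed in CpG content. The downstream window of NGEF held 53 CpG at 84.3% GC and the upstream window 9 CpG at 59.3% GC. In ARHGEF26, the downstream window held 34 CpG at 70.0% GC and the upstream window 9 CpG at 46.0% GC. The median was 21 CpG over the 95 windows of the members tested and 14 CpG over 35116 windows of all genes. The upstream window of ARHGEF26 held a match to the p53 response element decamer, as did 6.63% of all windows, and a TATAAA, as did 11.5%. Both NGEF windows and the downstream ARHGEF26 window held the GC box GGGCGG, found in 45.0% of all windows. Motifs were searched on both strands. They describe these letters only, and which start A431 cells use was not measured.

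Of the 69 genes, 55 passed the filter on low counts (79.7%, against 25% of all genes), and 14513 genes were tested in all. Of all 58051 genes, 30587 had no count, and the 2 shares were not matched for gene type. No read was counted for ARHGAP6, ARHGAP15, ARHGAP20, ARHGAP28, ARHGAP36 and ARHGEF25. The other 8 that did not pass were ARHGAP9, ARHGAP25, ARHGAP31, ARHGAP44, ARHGEF15, ARHGEF33, ARHGEF38 and VAV1, the VAV protein of blood cells. Library totals ran from 19783778 to 29840452 counts, and intervals and floors given here cover counting error only. The summed epidermal markers lay between 10300 and 18700 CPM (counts scaled to the library total) in every library, and most of this sum was EGFR, at 8666 to 17320 CPM. The epidermal keratin KRT6A was higher in p53 KO cells, at 68.3 to 77.7 CPM, than in parental cells, at 13.3 to 15.3 CPM, and Ctrl cells, at 9.80 to 11.2 CPM (log2 fold changes 2.35 ± 0.095 and 2.75 ± 0.098). CDH1, of the same list, was lower in p53 KO cells, at 265 to 298 CPM. It stood at 341 to 361 CPM in parental and 313 to 383 CPM in Ctrl cells. Of the 8 epidermal markers tested, 1 rose and 1 fell against both controls (adjusted p at most 0.05 in edgeR's test), beside 6.46% and 5.25% of all genes. The part of these markers in the results was not tested. Fibroblast, endothelial and leukocyte markers summed to at most 4.42, 1.16 and 0.342 CPM.

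Ctrl library 1 and p53 KO library 3 stood apart from their groups. Long transcripts were low in both, with a Spearman correlation between exon length and deviation from the group mean of -0.435 and -0.366 over 14397 genes, a description across genes of a single library each. The members are long, with a median exon length of 7.31 kb against 4.84 kb over all genes tested, so counts of members are also given without these libraries. The part of transcript length in the results was not tested.

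Levels per kb of exon showed which GEFs and GAPs these cells carry most of. NET1, a GEF for RHOA that shuttles between nucleus and cytoplasm, led with 50.3 CPM per kb over the 9 libraries. ARHGAP11A, a RhoA GAP of dividing cells, followed at 33.6 CPM per kb, although it shares sequence with its near copy ARHGAP11B and reads could be split between them. ARHGAP23 stood at 24.1, ARHGAP29 at 20.6 and ARHGEF19 at 16.7 CPM per kb. ARHGEF1, VAV2, ARHGAP1, ARHGAP35 and ARHGAP21 completed the top 10, between 10.5 and 15.4 CPM per kb. The order changed between groups. ARHGEF19 was behind VAV2 in parental cells, at 13.5 against 15.6 CPM per kb, and ahead of ARHGAP29 in p53 KO cells, at 19.4 against 17.8 CPM per kb. ARHGAP21 went from 13.1 CPM per kb in parental and 11.1 in Ctrl cells to 7.40 CPM per kb in p53 KO cells. The members with the strongest contrasts were low in this order: NGEF, TIAM2, ARHGEF26 and ARHGAP24 had overall levels of 1.27, 0.203, 0.207 and 0.108 CPM per kb.

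**Figure D1:**
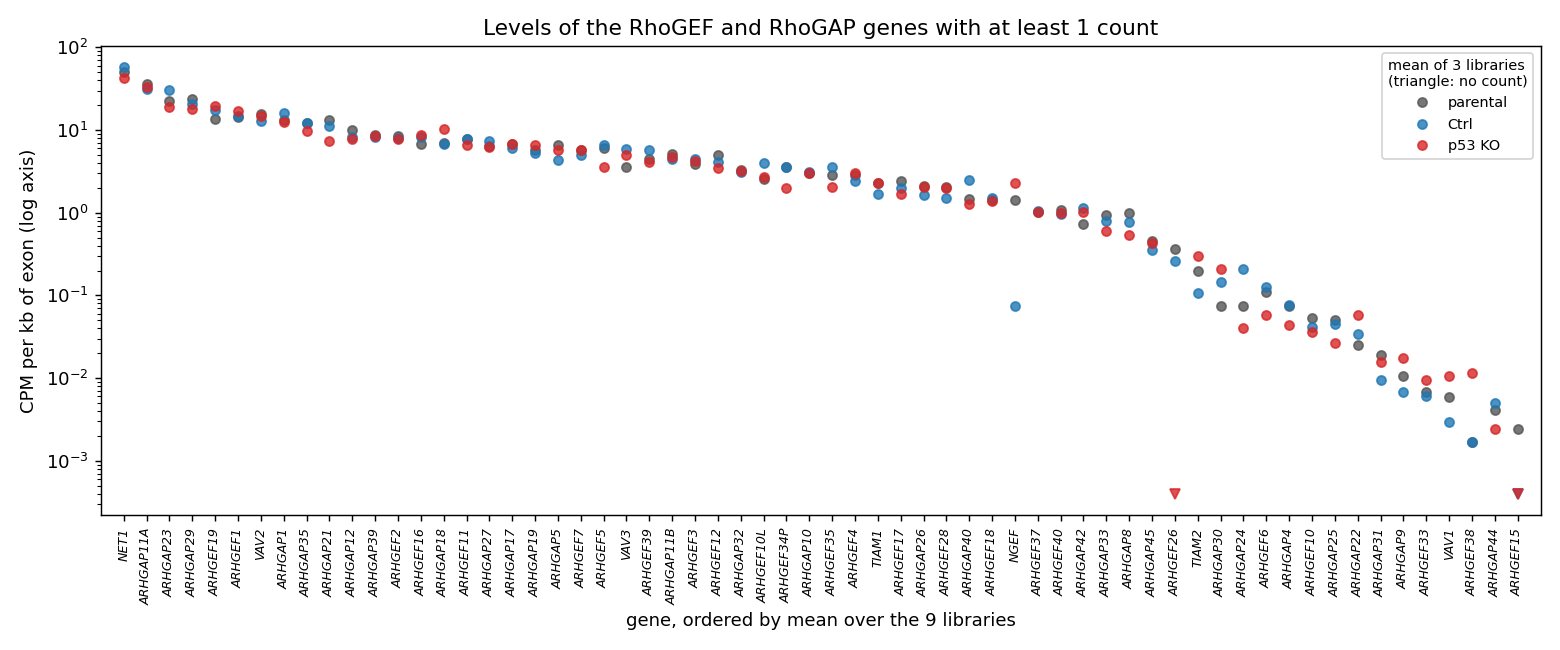
Mean level of the RhoGEF and RhoGAP genes with a count, 1 gene left out, in CPM per kb of exon on a log axis, as 1 point per group of 3 libraries, with triangles where no read was counted. NET1 leads at 50.3 CPM per kb, and the groups lie close together except for genes such as NGEF, at 2.32 CPM per kb in p53 KO, 1.41 in parental and 0.0736 in Ctrl cells.

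The comparison of p53 KO with both mutant p53 controls asked which of these genes differ where p53 is lost. A gene was counted as changed at an adjusted p of at most 0.05 in edgeR's quasi-likelihood test, and as called where its log2 fold change was also above 1.5 or below -1.5. Against parental cells, 7 of the 55 genes rose and 10 fell in p53 KO cells, where 9.77% of all genes tested rose and 8.36% fell. Of these, 1 gene was called (ARHGEF26), with 1.95% of all genes called. Against Ctrl cells, 8 rose and 17 fell, where 15% of all genes rose and 14.2% fell. Called were 4 genes, with 3.29% of all genes called: ARHGEF26 and ARHGAP24 fell, and NGEF and TIAM2 rose. The median log2 fold change of the members was -0.07 against parental and -0.08 against Ctrl cells, beside 0.01 for all genes in both.

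In the same direction against both controls, 3 genes rose (NGEF, TIAM2 and ARHGAP18) and 8 fell (ARHGEF26, ARHGEF5, ARHGEF35, ARHGEF34P, NET1, ARHGAP8, ARHGAP21 and ARHGAP23). Over all genes, 6.46% rose and 5.25% fell in this way. ARHGEF5, ARHGEF35 and the pseudogene ARHGEF34P are near copies side by side on chromosome 7, so they may not be separate changes. Called against both was ARHGEF26 (1 gene, 1.25% of all genes). Both comparisons share the p53 KO libraries and are not independent. By kind, 11 of 29 RhoGEF genes (37.9%) and 6 of 26 RhoGAP genes (23.1%) changed against parental cells, beside 18.1% of all genes. Against Ctrl cells 14 (48.3%) and 11 (42.3%) changed, beside 29.2% of all genes. Without Ctrl library 1 and p53 KO library 3, an analysis added after the data were seen, 18 genes changed in the same direction against both controls, 5 up and 13 down, beside 19.5% of all genes. These held 10 of the 11 named above. ARHGAP8 was not among them, and ARHGAP19, ARHGAP30, ARHGEF6, ARHGEF11, ARHGEF12, ARHGEF17, ARHGAP29 and ARHGAP35 were added. Without these libraries 30.8% of all genes changed against parental and 38.1% against Ctrl cells.

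**Figure D2:**
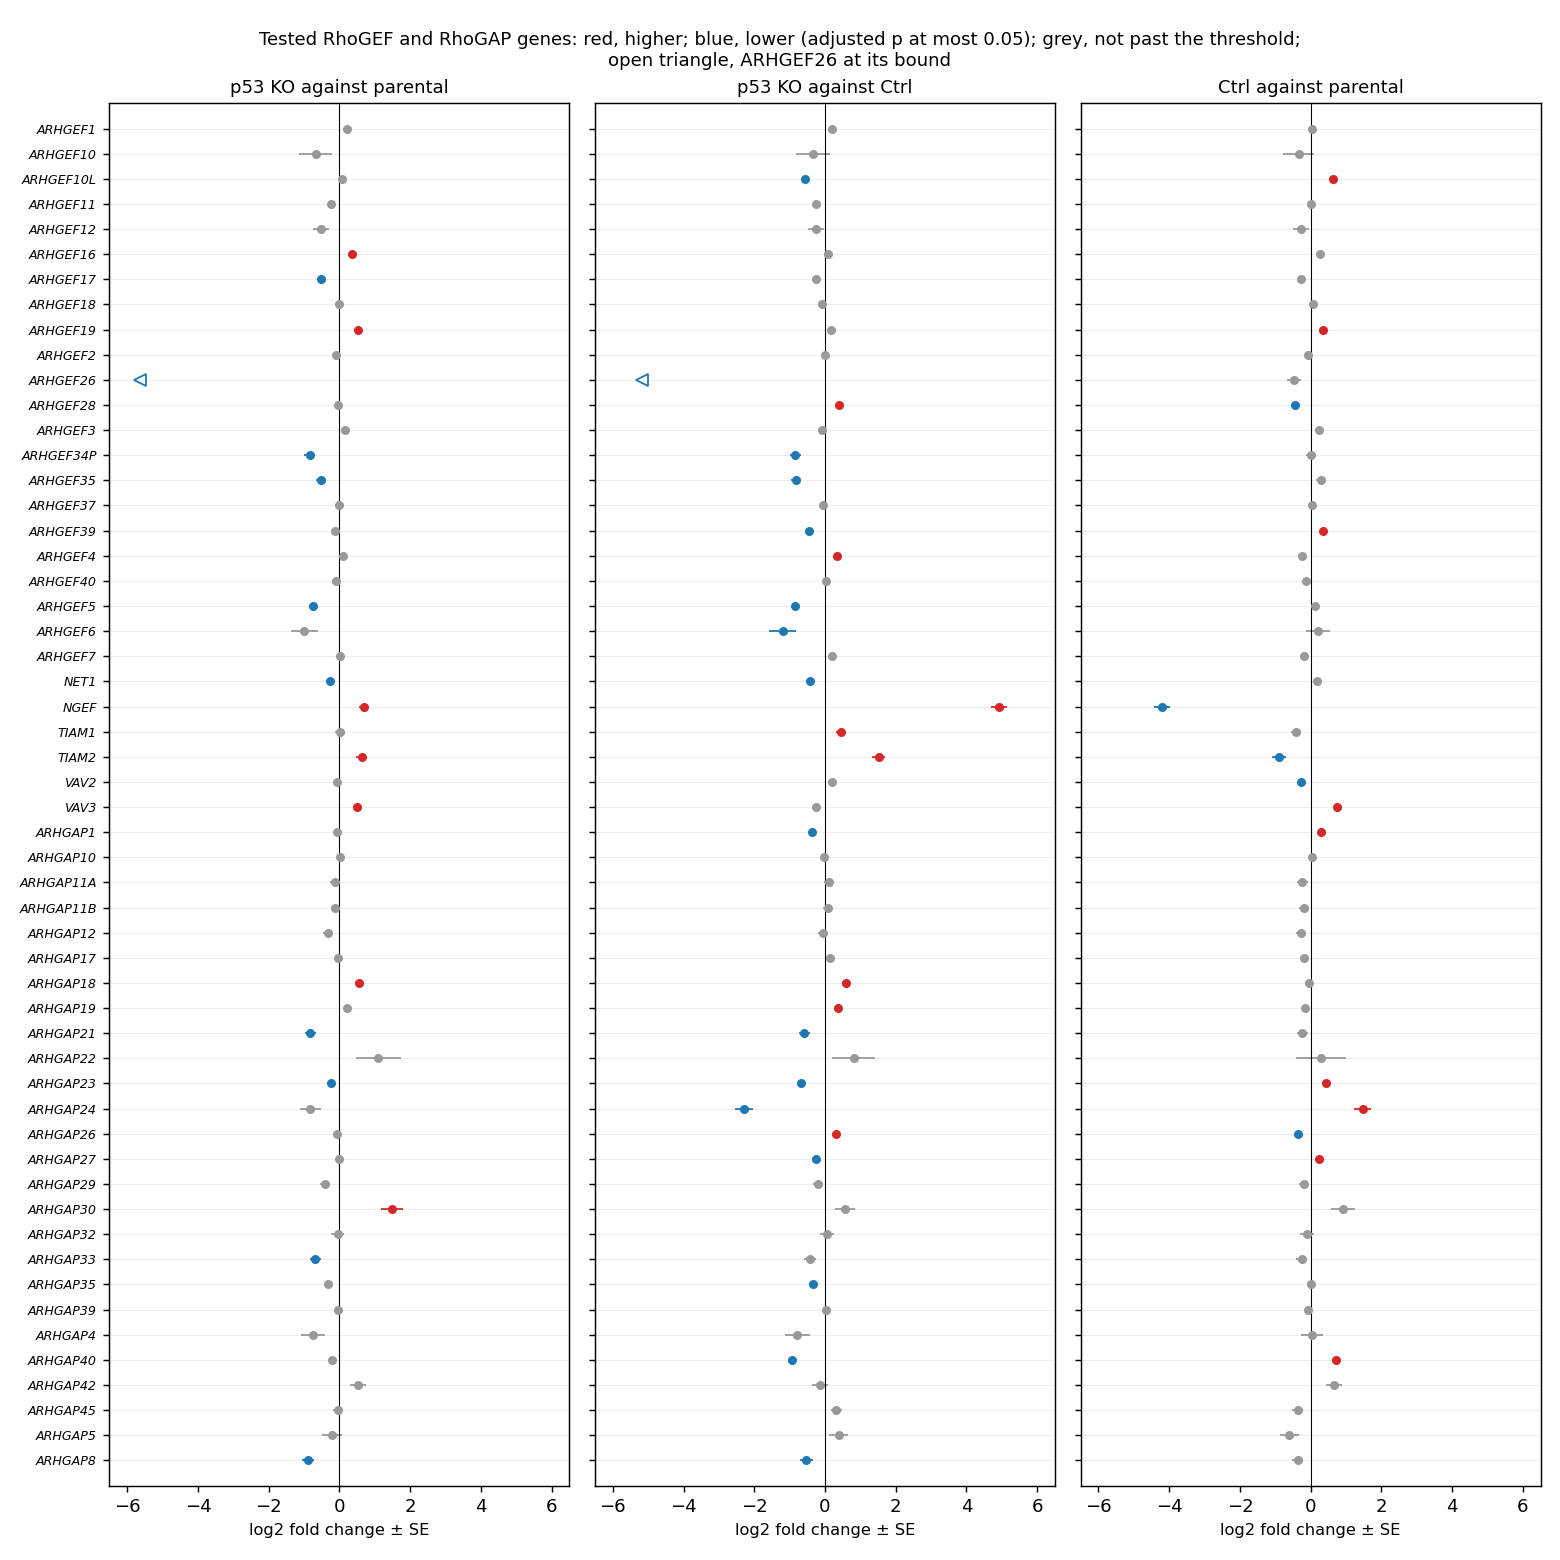
Fitted log2 fold change with its SE for the RhoGEF and RhoGAP genes tested, 1 gene left out, in the 3 comparisons, with ARHGEF26 drawn as an open triangle at its bound. Most genes lie close to 0, and NGEF stands far to the right against Ctrl cells at 4.92 and far to the left in Ctrl against parental cells at -4.21.

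The ephexin and SGEF group, GEFs that link Eph receptors, Src family kinases and RHOG to the cytoskeleton, changed in every tested gene against parental cells. Of its 7 listed genes, 6 were tested and all 6 changed, where 18.1% of all genes did: NGEF, ARHGEF16 and ARHGEF19 rose and ARHGEF26, ARHGEF5 and ARHGEF35 fell. Against Ctrl cells, NGEF rose and the same 3 genes fell, where 29.2% of all genes changed. The change of ARHGEF35 against parental cells did not hold in every refit. The group was listed with results of these data known, and ARHGEF5 and ARHGEF35 share sequence.

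For ARHGEF26, reads were counted in all control libraries and in no p53 KO library. Parental libraries held 51, 50 and 44 counts and Ctrl libraries 25, 35 and 46 counts. All 3 p53 KO libraries held 0. With 3 counts over the group as the floor, ARHGEF26 was at least 49.9-fold lower in p53 KO than in parental cells (adjusted p = 2.35e-05) and at least 36.3-fold below Ctrl cells (adjusted p = 1.94e-05). Parental and Ctrl cells were not separated by the test (log2 fold change -0.46 ± 0.20, SE as for all fold changes, adjusted p = 0.125). The gene spans chr3:154121003-154257827. Its overlapping antisense gene ARHGEF26-AS1 had 1 count in each parental library and 0 in the others.

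NGEF (chr2:232878701-233013256) was highest in p53 KO cells and nearly absent from Ctrl cells. Its counts were 173, 159 and 150 in parental, 290, 259 and 256 in p53 KO, and 6, 14 and 6 in Ctrl libraries. The 3 groups did not overlap. Against parental cells NGEF rose to 1.64-fold in p53 KO cells (log2 fold change 0.71 ± 0.14, adjusted p = 0.00541). Against Ctrl cells it rose to 31.4-fold (4.92 ± 0.22, adjusted p = 1.32e-07). The larger ratio came with the low level in Ctrl cells, which had 5.22% of the parental mean (-4.21 ± 0.23, adjusted p = 1.84e-06).

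ARHGEF5 (TIM), a GEF that Src can activate, fell to 59.4% of the parental and 54.9% of the Ctrl mean. Its normalised read counts were 545, 545 and 467 in p53 KO libraries, 911, 846 and 864 in parental and 897, 905 and 1032 in Ctrl libraries. Every p53 KO library lay below the 6 control libraries (log2 fold changes -0.75 ± 0.093 and -0.86 ± 0.092, adjusted p = 0.000344 and 5.63e-05). ARHGEF35 and the pseudogene ARHGEF34P lie beside it on chromosome 7 and are near copies of it, so reads may have been split among the 3 genes. ARHGEF35 fell by 0.51 and 0.81 on the log2 scale against parental and Ctrl cells (adjusted p = 0.0291 and 0.00123), and ARHGEF34P by 0.83 and 0.85 (adjusted p = 0.00378 and 0.0019). For ARHGEF35 and ARHGEF34P, too, the p53 KO libraries lay below all controls. The change of ARHGEF35 against parental cells was lost without p53 KO library 2 or any parental library (adjusted p between 0.075 and 0.0916).

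ARHGEF16 (ephexin 4) and ARHGEF19 (WGEF), GEFs found in epithelia, rose against parental cells but did not pass the test against Ctrl cells. ARHGEF16 had mean normalised read counts of 1151 ± 87.3 (SD, n = 3, as for all means) in p53 KO, 902 ± 38.8 in parental and 1091 ± 104 in Ctrl cells. For ARHGEF19 they were 1812 ± 187, 1266 ± 69.2 and 1614 ± 197 in the same order. The p53 KO libraries lay above the parental libraries and overlapped the Ctrl libraries in both genes. The log2 fold changes were 0.35 ± 0.092 and 0.52 ± 0.11 against parental cells (adjusted p = 0.0228 and 0.00618), and 0.08 ± 0.091 and 0.17 ± 0.10 against Ctrl cells (adjusted p = 0.571 and 0.266).

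**Figure D3:**
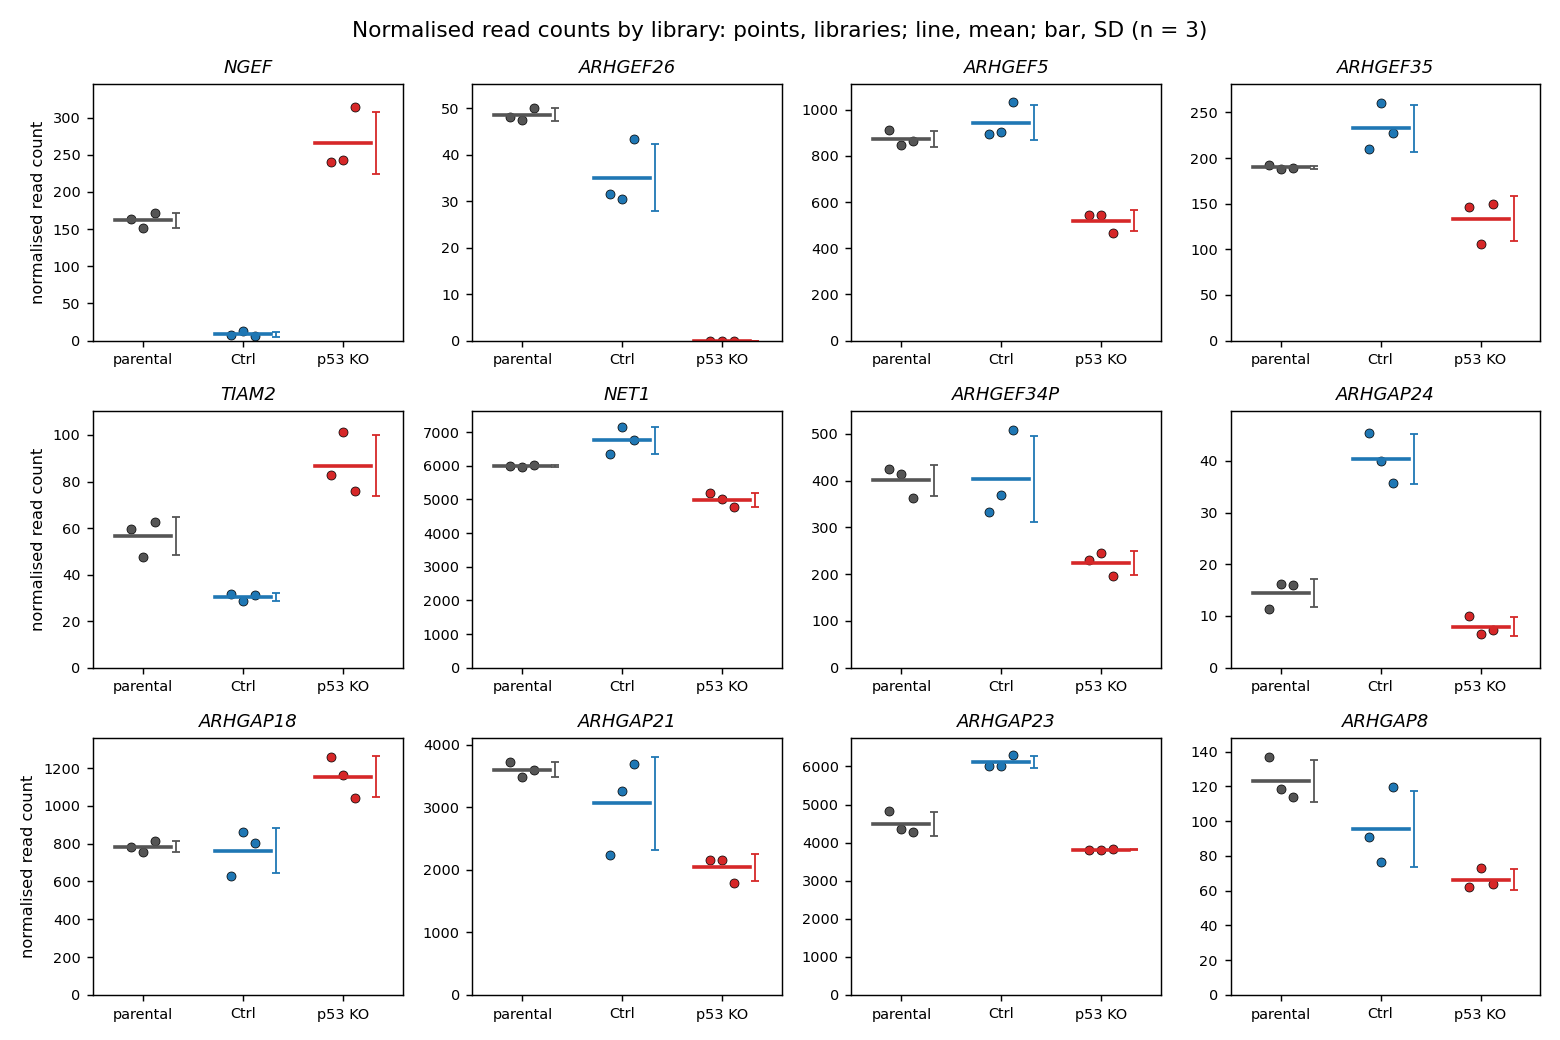
Normalised read counts by library for the 11 genes changed against both controls and for ARHGAP24, with group means and SD (n = 3) and each axis starting at 0. ARHGEF26 is at 0 in all p53 KO libraries, and the Ctrl libraries stand apart from the parental libraries for NGEF, TIAM2, ARHGAP23 and ARHGAP24.

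Among the GEFs for RAC1 and CDC42, TIAM2 (STEF), a Rac GEF related to TIAM1, was the gene that changed against both controls. It had 100, 108 and 62 counts in p53 KO, 63, 50 and 55 in parental and 25, 33 and 33 in Ctrl libraries. After normalisation the groups did not overlap. TIAM2 rose to 1.53-fold of the parental mean (log2 fold change 0.63 ± 0.16, adjusted p = 0.0209) and 2.85-fold of the Ctrl mean (1.52 ± 0.18, adjusted p = 9.85e-05). Against parental cells this was lost without p53 KO library 2, parental library 1 or parental library 2 (adjusted p = 0.0902, 0.0562 and 0.0975). TIAM1 did not pass the test against parental cells (0.03 ± 0.14, adjusted p = 0.916) and rose by 0.44 ± 0.14 against Ctrl cells (adjusted p = 0.039).

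Of the 6 genes of this group, 1 changed against parental and 5 against Ctrl cells, where 18.1% and 29.2% of all genes did. Besides TIAM2 and TIAM1, ARHGEF4 (Asef, a partner of APC) rose by 0.34 against Ctrl cells, while ARHGEF6 (alpha-PIX) fell by 1.20 on the log2 scale. ARHGEF6 was scarce, with means of 7.51 normalised counts in p53 KO, 14.4 in parental and 16.7 in Ctrl cells. ARHGEF7 (beta-PIX), with a mean of 1659 to 1673 in parental and p53 KO cells, passed neither test (0.01 ± 0.088 and 0.21 ± 0.088, adjusted p = 0.939 and 0.0989). Of the VAV proteins, GEFs switched on by tyrosine kinases, VAV3 had means of 899 ± 122 in p53 KO, 642 ± 26.0 in parental and 1066 ± 6.61 in Ctrl cells. It rose against parental cells (0.49 ± 0.099, adjusted p = 0.0059) and did not pass the test against Ctrl cells (-0.24 ± 0.098, adjusted p = 0.0868). VAV2 passed neither (-0.07 ± 0.069 and 0.20 ± 0.069, adjusted p = 0.547 and 0.0538), and VAV1 was below the filter.

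The GEFs directed at RHOA were listed in 2 groups, each with 6 genes tested. In the group that couples G proteins, microtubules and adhesion to RHOA (ARHGEF1, ARHGEF2, ARHGEF11, ARHGEF12, ARHGEF18 and ARHGEF28), 0 of 6 passed edgeR's test against parental cells, with 3 at an unadjusted p under 0.05 and 0 by DESeq2. Of all genes, 18.1% passed edgeR's test in this comparison, so 0 of 6 says little. Without Ctrl library 1 and p53 KO library 3, 2 of the 6 fell, ARHGEF11 by 0.18 and ARHGEF12 by 0.43 on the log2 scale (adjusted p = 0.0361 and 0.00257), where 30.8% of all genes changed. Against Ctrl cells, 1 of the 6 changed with all libraries, where 29.2% of all genes did: ARHGEF28 rose by 0.40 ± 0.11 (adjusted p = 0.0193). ARHGEF2 (GEF-H1), which is released from microtubules, had mean normalised counts of 1798 ± 32.7 in p53 KO, 1914 ± 69.3 in parental and 1806 ± 16.6 in Ctrl cells. Of the 6 other RHOA-directed GEFs tested, 2 changed against parental (18.1% of all genes) and 2 against Ctrl cells (29.2% of all genes). NET1 fell against both controls and ARHGEF17 fell against parental cells (-0.53 ± 0.093, adjusted p = 0.00266). ARHGEF10L fell against Ctrl cells (-0.56 ± 0.091, adjusted p = 0.000823).

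NET1 had normalised counts of 5187, 5022 and 4772 in p53 KO, 6007, 5955 and 6015 in parental and 6357, 7145 and 6766 in Ctrl libraries. The p53 KO libraries lay below all controls, by a small amount. The mean was 83.3% of the parental and 73.9% of the Ctrl mean (log2 fold changes -0.26 ± 0.066 and -0.44 ± 0.066, adjusted p = 0.019 and 0.000554). Against parental cells this was lost without p53 KO library 2 or 3 or any parental library (adjusted p between 0.0609 and 0.0755).

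Among the RhoGAP genes, ARHGAP24 (FilGAP), a GAP for RAC1 that binds filamin A, separated Ctrl from the other cells. It had 36, 46 and 38 counts in Ctrl, 12, 17 and 14 in parental and 12, 7 and 6 in p53 KO libraries. ARHGAP24 fell to 19.7% of the Ctrl mean in p53 KO cells (log2 fold change -2.29 ± 0.25, adjusted p = 6.67e-05). Against parental cells the difference did not pass the test (-0.83 ± 0.30, adjusted p = 0.0852), while Ctrl was 2.79-fold above parental cells (1.47 ± 0.23, adjusted p = 0.00143). ARHGAP30 was also scarce, at 37, 27 and 18 counts in p53 KO, 12, 8 and 8 in parental and 21, 18 and 14 in Ctrl libraries. It rose against parental cells (1.48 ± 0.32, adjusted p = 0.00788) and did not pass the test against Ctrl cells (0.56 ± 0.28, adjusted p = 0.158).

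ARHGAP18, a GAP for RHOA, was the RhoGAP gene that rose against both controls. Its normalised counts were 1257, 1165 and 1042 in p53 KO, 783, 757 and 813 in parental and 627, 859 and 803 in Ctrl libraries. The p53 KO libraries lay above all controls, with 1.47 times the parental and 1.51 times the Ctrl mean (log2 fold changes 0.56 ± 0.12 and 0.60 ± 0.12, adjusted p = 0.00671 and 0.00273). In contrast, ARHGAP21, a GAP for CDC42 at the Golgi, fell to 56.6% of the parental mean. Its normalised counts were 2163, 2159 and 1792 in p53 KO, 3726, 3483 and 3589 in parental and 2237, 3254 and 3695 in Ctrl libraries. Ctrl library 1, which stands apart, lay close to the p53 KO libraries. The log2 fold changes were -0.82 ± 0.15 and -0.59 ± 0.15 (adjusted p = 0.0038 and 0.0139). Without Ctrl library 1 and p53 KO library 3 they were -0.74 and -0.68 (adjusted p = 1.48e-06 and 2.84e-06), and without p53 KO library 3 alone the change against Ctrl cells was -0.50 (adjusted p = 0.0569).

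ARHGAP23, the close relative of ARHGAP21, was high in Ctrl cells. Its mean normalised counts were 6112 ± 164 in Ctrl, 4482 ± 309 in parental and 3809 ± 10.9 in p53 KO cells, and no groups overlapped. It fell by 0.68 ± 0.067 on the log2 scale against Ctrl cells (adjusted p = 3.31e-05) and by 0.23 ± 0.067 against parental cells (adjusted p = 0.0337). The latter call was lost without any of the parental or p53 KO libraries (adjusted p between 0.0506 and 0.149). ARHGAP8 (BPGAP1) fell by 0.89 and 0.52 against parental and Ctrl cells (adjusted p = 0.00478 and 0.0486), with means of 123, 95.6 and 66.4 normalised counts in parental, Ctrl and p53 KO cells. The change against Ctrl cells was lost without Ctrl library 3 or any parental or p53 KO library (adjusted p between 0.0604 and 0.162). ARHGAP8 overlaps the read-through gene PRR5-ARHGAP8, and reads of the shared exons cannot be assigned to either.

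The p190 and GRAF group of GAPs, which restrain RHOA at adhesions, had 0 of 5 genes past edgeR's test against parental cells, with 2 at an unadjusted p under 0.05 and 0 by DESeq2. Of all genes, 18.1% passed edgeR's test there, so a count of 0 among so few genes says little. ARHGAP42 (GRAF3) had a log2 fold change of 0.52 ± 0.23 there (adjusted p = 0.145). Without Ctrl library 1 and p53 KO library 3, 2 of the 5 passed, beside 30.8% of all genes: ARHGAP42 rose by 0.72 (adjusted p = 0.000134) and ARHGAP35 fell by 0.28 (adjusted p = 0.0104). With all libraries, against Ctrl cells ARHGAP35 (p190A) fell by 0.33 ± 0.11 (adjusted p = 0.0472) and ARHGAP26 (GRAF1) rose by 0.30 ± 0.092 (adjusted p = 0.0281). ARHGAP29 had means of 8087 ± 666 in p53 KO, 10640 ± 214 in parental and 9321 ± 2190 in Ctrl cells and passed neither test (adjusted p = 0.0827 against parental and 0.32 against Ctrl cells). Of the 3 genes listed as cell division GAPs, ARHGAP11A and ARHGAP11B passed neither comparison. ARHGAP11B is annotated as a long non-coding RNA gene and is counted as a RhoGAP gene by its symbol only. ARHGAP19 rose against Ctrl cells (0.36 ± 0.069, adjusted p = 0.00271). Of the other abundant genes, ARHGAP1 and ARHGEF1 passed no test against parental cells (-0.07 ± 0.077 and 0.22 ± 0.091, adjusted p = 0.576 and 0.126). Against Ctrl cells ARHGAP1 fell by 0.36 ± 0.077 (adjusted p = 0.0049), and it was higher in Ctrl than in parental cells (0.29 ± 0.077, adjusted p = 0.0247). ARHGEF1 did not pass the test against Ctrl cells (0.19 ± 0.091, adjusted p = 0.144).

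The comparison of Ctrl with parental cells, both with mutant p53, shows how this 1 CRISPR line differs from parental cells without loss of p53. The spread between such lines was not measured. Of the 55 genes, 10 rose and 5 fell, where 10.6% of all genes rose and 9.69% fell. Of these, 1 was called (NGEF), with 1.94% of all genes called. The genes that rose included ARHGAP24, ARHGAP40 (0.73 ± 0.13, adjusted p = 0.00365), VAV3 (0.73 ± 0.099, adjusted p = 0.000626) and ARHGEF10L (0.63 ± 0.092, adjusted p = 0.00101). Those that fell besides NGEF were TIAM2, ARHGEF28, ARHGAP26 and VAV2. Without Ctrl library 1 and p53 KO library 3, 24 members changed, with 28.5% of all genes. For NGEF, TIAM2 and ARHGAP24, then, the value in p53 KO cells depends on the control: parental cells lay between Ctrl and p53 KO cells in all 3.

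Position was examined after the members' values were known, by the 20 nearest tested genes outside the list (10 on each side where present). Around NGEF, ARHGAP23 and ARHGAP24 the medians of the neighbours' log2 fold changes stayed between -0.12 and 0.09 in p53 KO against either control. Around ARHGEF26 on chromosome 3 the neighbours had medians of -0.41 against parental and -0.56 against Ctrl cells, with 19 and 18 of 20 lower. Around ARHGEF5, ARHGEF35 and ARHGEF34P they had -0.40 and -0.55, with 18 of 20 lower in both. Around ARHGAP21 on chromosome 10 the medians were -0.43 and -0.39, with 19 and 18 of 20 lower.

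Around ARHGAP18 and TIAM2 the neighbours were higher. Around ARHGAP18 on chromosome 6 the medians were 0.40 and 0.48, with 0 and 1 of 20 lower, and around TIAM2 on the same chromosome 0.35 and 0.51, with 3 of 20 lower in both. Around ARHGAP19 on chromosome 10, which rose against Ctrl cells, they were 0.52 and 0.57, and around NET1, which fell, -0.19 and -0.32. Medians away from 0 also stood beside genes that passed neither test. For ARHGAP22 they were 0.44 and 0.52, with 3 of 20 lower in both, and for ARHGAP12 -0.31 and -0.11. For ARHGAP8, which fell against both controls, they were -0.13 and -0.15. Over all 55 members the middle of these medians was 0.01 and -0.04, and 49.2% of all genes tested were lower in each comparison. In Ctrl against parental cells the medians around ARHGEF26, ARHGEF5, ARHGAP21, ARHGAP18 and TIAM2 lay between -0.17 and 0.13. DNA copy number was not measured, and the part of chromosomal position in these results was not tested.

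**Figure D4:**
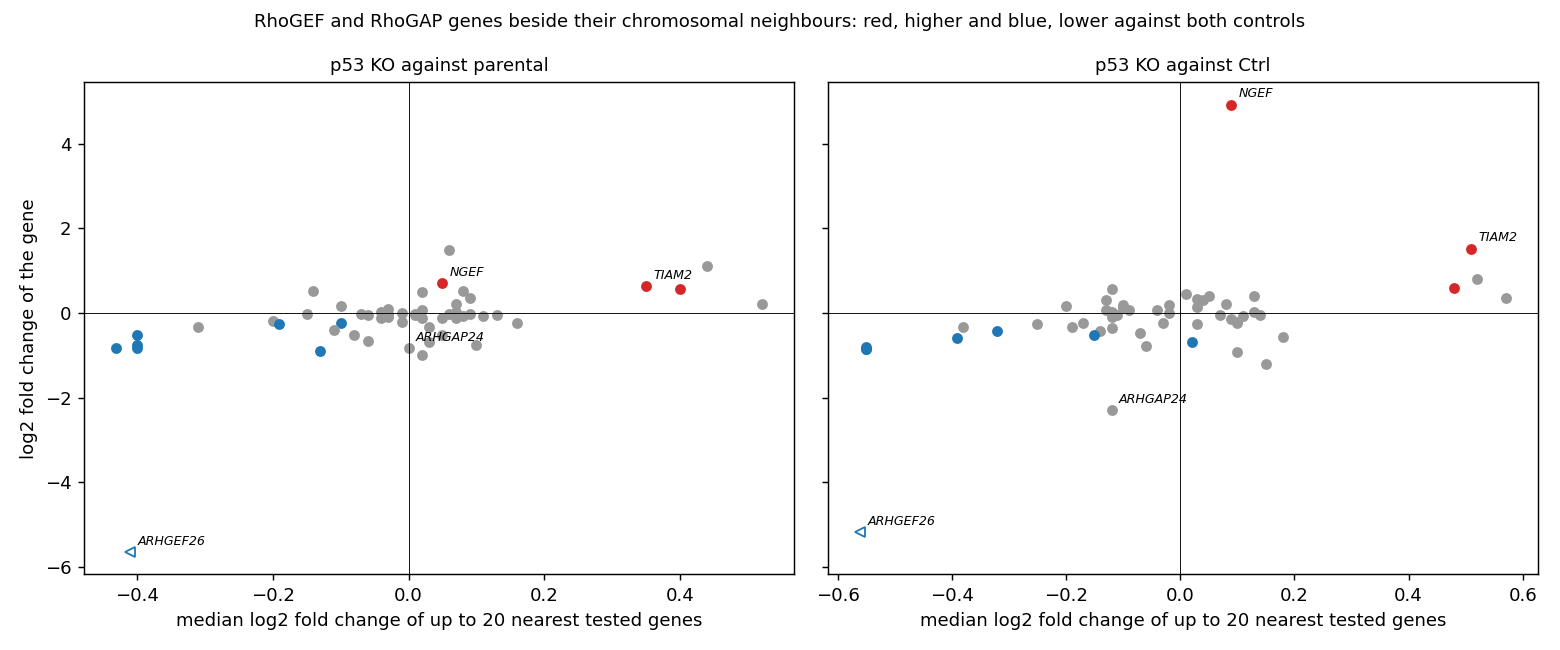
Log2 fold change of the genes tested, 1 gene left out (vertical axis) against the median log2 fold change of up to 20 nearest tested genes (horizontal axis), for p53 KO against parental and against Ctrl cells, with ARHGEF26 as an open triangle at its bound. NGEF lies near the middle of the horizontal axis, at 0.05 and 0.09, while ARHGEF26 lies at -0.41 and -0.56 and TIAM2 at 0.35 and 0.51.

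Other genes of the pathway were counted in the same way. Of 139 listed genes (GTPases, GDIs, other GEFs and GAPs, and effectors), 109 were tested, and 4 rose and 8 fell in p53 KO cells against both controls, 11.0% beside 11.7% of all genes. This count of 12 ranged from 6 to 29 with a library left out. Against parental cells 19.3% changed, beside 18.1% of all genes, and against Ctrl cells 36.7%, beside 29.2%. In Ctrl against parental cells 26.6% changed, beside 20.3%. RHOA, the main GTPase of contractility, passed no test (0.06 ± 0.069 and -0.04 ± 0.069 against parental and Ctrl cells, adjusted p = 0.607 and 0.728). CDC42, which drives filopodia, passed none either (0.10 ± 0.064 and 0.14 ± 0.064, adjusted p = 0.33 and 0.136). RAC1, the GTPase of lamellipodia, rose slightly (0.24 ± 0.063 and 0.23 ± 0.063, adjusted p = 0.024 and 0.0183).

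Among GTPases with unusual regulation, RHOU and RHOBTB2 rose and RND3, which opposes RHOA, fell by 0.49 and 0.58 on the log2 scale. RHOU rose by 0.98 ± 0.26 and 1.15 ± 0.26 (adjusted p = 0.0226 and 0.00673). Of the effectors, CYFIP2, a subunit of the WAVE complex that carries RAC1 signals to actin, had normalised counts of 0 to 0.8 in p53 KO libraries, against 16.0 to 20.9 in parental and 16.0 to 21.4 in Ctrl libraries. The kinase PKN3 fell by 1.09 and 1.31, and RHPN2, which binds RHOA, rose by 0.46 and 0.51. Of the other GEFs RASGRF1, which also acts on RAS, fell by 0.68 and 0.65 and ECT2, the GEF of cytokinesis, by 0.46 and 0.42, and of the other GAPs MYO9B fell by 0.35 and 0.20.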

How the data were processed

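RNA of 9 A431 libraries (3 parental, 3 Ctrl, 3 p53 KO) was prepared with a stranded poly(A) kit and sequenced in paired-end mode. The authors aligned reads to GRCh38 with STAR 2.5.1b, counted them per gene with featureCounts on the Ensembl annotation, and deposited raw read counts, without normalisation or pooling. The strand setting of the counting is not given in the sources used here.

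In R 4.3.3, counts were filtered with filterByExpr (minimum count 10), scaled by TMM and fitted over all 9 libraries with edgeR 4.0.16 (quasi-likelihood test, Benjamini-Hochberg adjustment over 14513 genes). The study used DESeq2, which was an alternative here (1.42.0). Normalised read counts are CPM times the mean library size. Other alternatives were size factors, filters, the fold change limit, a replicate block, pairs of groups and libraries left out. The model was tested on simulated data. Positions and exon lengths came from GENCODE release 44. Named genes were those called, those changed at least 2-fold against both controls, the 10 highest per kb, NGEF, VAV, TIAM and NET1, the ephexin and SGEF group, RHOA, RAC1, CDC42 and up to 3 genes of each pathway list. A few of these genes are not reported here. Further genes were named after their values were seen. Members and lists were chosen with earlier results of these data known.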

Additional observations from a re-analysis of the deposited data

Results flagged for a closer look

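For 3 genes the Ctrl and p53 KO lines moved in opposite directions from the parental cells, each past edgeR's test, and they were picked for that. The difference between the lines follows from this choice and is given as a value with no test. NGEF was lower than parental in Ctrl and higher in p53 KO cells, and the lines differed by 4.92 ± 0.22 on the log2 scale. TIAM2 moved the same way, and the lines differed by 1.52 ± 0.18. ARHGAP23 was higher than parental in Ctrl and lower in p53 KO cells, and the lines differed by -0.68 ± 0.067. For 2 of the 3 genes the side of p53 KO against parental cells did not hold in every refit. ARHGAP23 no longer passed that test when any single parental or p53 KO library was left out (edgeR, adjusted p between 0.0506 and 0.149). TIAM2 no longer passed it without p53 KO library 2, parental library 1 or parental library 2 (edgeR, adjusted p = 0.0902, 0.0562 and 0.0975). Differences between the lines and between the colonies they came from cannot be told apart.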

How the results depend on the processing

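Of 425 refits of 27 values of single members, 391 kept their direction and side of the threshold, 34 no longer passed it and 0 reversed. These values were picked for passing edgeR's test in the main fit, and the refits reuse most or all of the libraries. Much of this agreement was therefore fixed in advance. Refits in which a filter removed the gene were not counted. The 6 values that lost the threshold belong to ARHGAP21, ARHGAP8 (against Ctrl), ARHGAP23, ARHGEF35, NET1 and TIAM2 (against parental cells). Genes neither called nor changed against both controls were not among the 27 values. Examples are ARHGEF16, ARHGEF17, ARHGEF19, VAV3, ARHGAP30, ARHGEF28, ARHGAP26, ARHGAP35 and ARHGEF10L, so how their changes hold in the refits is not given here. With at least 10 counts in every library, which removes ARHGEF26, NGEF and other genes scarce in a group, called members numbered 0 against parental, 1 against Ctrl, 0 against both and 0 in Ctrl against parental cells. A log2 fold change of at least 1 gave 2 called against parental and 2 in Ctrl against parental cells. The share of all genes called was computed in the main setting only. Counts of called members in other settings thus have no such share beside them. Replicate numbers did not pair the libraries (correlations of same-numbered deviations from -0.574 to 0.109). With the replicate block 6 members changed against both controls, in place of 11, 8 in Ctrl against parental cells, in place of 15, and 7 other pathway genes against both, in place of 12. All genes then gave 8.36% against both controls, in place of 11.7%, and 11.7% in Ctrl against parental cells, in place of 20.3%. Leaving out both Ctrl library 1 and p53 KO library 3, chosen after seeing the data, gave 18 members against both, 26 against parental, 24 in Ctrl against parental cells, 2 called against parental cells and 27 other pathway genes, where 19.5% of all genes changed against both controls. With each library left out in turn, changed members ranged from 6 (p53 KO library 2 or parental library 1 or 2 out) to 20 (Ctrl library 1 out) against both controls, from 11 (parental library 1 out) to 25 against parental, from 16 (p53 KO library 2 out) to 33 against Ctrl, and from 8 (Ctrl library 2 or parental library 1 out) to 23 (Ctrl library 3 out) in Ctrl against parental cells. In the same refits the share of all genes changed ranged from 7.97% to 19.7% (Ctrl library 1 out) against both controls, from 10.6% to 33.5% against parental, from 21% to 35% against Ctrl, and from 9.34% to 29.6% in Ctrl against parental cells. Called members ranged from 1 to 2 against parental and from 1 to 2 in Ctrl against parental cells, and other pathway genes from 6 to 29. The causes were not tested. Members near the filter rest on few counts, and for ARHGEF26, ARHGAP24 and ARHGAP30 the depth limits the precision of the folds.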
